A study of Mus musculus with 12 samples.

Results

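The B cell receptor chains and coreceptors described here are 9 genes, Cd79a, Cd79b, Cd81, Cr2, Cd22, Cd72, Fcgr2b, Ptprc and Ptpn6. They were chosen by symbol, though with earlier results of these data known, and all 9 are among the 12212 gene symbols listed for each library. RNA was measured in germinal center B cells of the spleen of NZBWF1/J mice, the F1 offspring of NZB and NZW, which spontaneously develop a disease like human lupus. B cells were enriched by negative selection and sorted by zone, dark or light, and 1000 cells per library went into cDNA synthesis. The 12 libraries form 4 groups of 3, control and treated for each zone. Control mice were untreated. Treated mice received CTLA4-Ig, which binds CD80 and CD86 and blocks the CD28 signal to T cells, and anti-CD40L, an antibody against the T cell ligand of CD40. Each agent was given in 6 doses, of 200 ug CTLA4-Ig and of 250 ug anti-CD40L, over 2 weeks from 18 weeks of age. The age of the control mice is not stated in the labels, nor are the sex of the mice and the antibodies that defined the zones. The labels also do not say whether the replicate numbers are separate mice, so p-values reflect only how these libraries vary, which may be technical in part. Because the cells were sequenced in bulk, fewer cells of a type and less RNA per cell cannot be told apart.

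Cd79a and Cd79b encode the signalling chains that pair with membrane immunoglobulin, and their cytoplasmic tails are phosphorylated by LYN and recruit SYK when antigen is bound. The coreceptor complex, which holds CD21 and CD81, lowers the threshold of that signal when antigen carries complement. In the mouse, CD21 and CD35 are both products of Cr2. CD22, CD72 and FcγRIIB, the inhibitory Fc receptor encoded by Fcgr2b, carry inhibitory tyrosine motifs. Those of CD22 and CD72 recruit SHP-1, the phosphatase encoded by Ptpn6, while FcγRIIB acts mainly through the lipid phosphatase SHIP-1. CD45, encoded by Ptprc, is the membrane phosphatase that keeps LYN and its relatives ready to be activated. Germinal center B cells proliferate and hypermutate in the dark zone, and their receptors are tested against antigen in the light zone. NZB mice, a parental strain of NZBWF1/J, carry an Fcgr2b allele known for low expression on germinal center B cells, and every group here shares that background.

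Sequence upstream of the transcription start is shown for Cd79a, Cr2 and Ptpn6. In the normalised counts described below, Cr2 separated the 6 light zone from the 6 dark zone libraries without overlap, as 0.0993% of genes did. Cd79a and Ptpn6 separated a set of 3 libraries introduced below from the other 9. That is common, as 13.7% of tested genes were higher and 16.7% lower in those 3 without overlap. The Cr2 and Cd79a separations were lost with library totals alone. The bases come from RefSeq on mm10 (GRCm38) and end before the outermost annotated start. They are those of the reference strain and not of NZBWF1/J. For Cr2 they do not adjoin the gene start given below, 195176716, but end upstream of it at 195176881. The Cd79a stretch is chr7:24897247-24897380 on the plus strand, the Cr2 stretch is chr1:195176881-195176969 on the minus strand, and the Ptpn6 stretch is chr6:124738715-124738959 on the minus strand. Each is written 5′ to 3′ along the gene, and capitals mark GGAAG, the core that ETS family factors bind, or its reverse complement.
Cd79a: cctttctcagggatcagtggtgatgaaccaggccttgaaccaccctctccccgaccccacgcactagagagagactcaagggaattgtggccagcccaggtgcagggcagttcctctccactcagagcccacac
Cr2: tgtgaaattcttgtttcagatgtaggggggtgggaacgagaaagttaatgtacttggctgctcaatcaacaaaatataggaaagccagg
Ptpn6: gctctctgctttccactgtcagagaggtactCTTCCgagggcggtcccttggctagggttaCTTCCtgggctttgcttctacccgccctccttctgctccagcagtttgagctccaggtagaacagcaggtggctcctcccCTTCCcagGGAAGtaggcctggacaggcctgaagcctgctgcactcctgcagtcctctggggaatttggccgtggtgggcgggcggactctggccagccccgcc

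Ptpn6 had 4 GGAAG matches on both strands together, and 63.1% of 32851 promoters held at least 1 in a window of that length. The Cd79a and Cr2 stretches had 0 matches, where 40.3% and 28.7% of promoters in windows of their lengths held one. The E-box CANNTG was matched once in each of the 3 stretches. It was present in 45.4%, 33% and 65.7% of promoters at the lengths of Cd79a, Cr2 and Ptpn6. The octamer ATGCAAAT and the EBF1 core CCCNNGGG were in none of the 3 stretches. Both strands were searched, and matches of different motifs could overlap. A match describes these letters only.

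Libraries held 16032746 to 26837714 counts. A level of 3 counts, taken as the detection floor, corresponded to 0.0776 to 0.206 CPM (normalised counts, relative to TMM-scaled library sizes), which covers counting error only. Of the treated libraries, 3 stood apart from the other 9, namely replicates 1 and 2 of the dark zone treated group and replicate 2 of the light zone treated group. On the first principal component, with 30.3% of the variance, they lay at 146.6 to 165.7 and the others at -102.9 to 20.42. They had counts for 12188 to 12195 symbols, against 11384 to 11960. All 7 germinal center B cell markers were listed, and their summed level was 1080 to 1530 CPM in the 3 libraries and 2850 to 4230 CPM in the 9. All 9 listed of 10 myeloid markers together gave 78.5 to 184 CPM in the 3 and 6.31 to 66 CPM in the 9, and Cd14 was not listed. Of those 9, 2 were at 0 in all dark zone control libraries and 2 in all light zone control libraries. Lyz2, C1qa, C1qb, C1qc and Csf1r were each higher in the 3 libraries than in any other, while Adgre1, Cd68, Mpeg1 and Fcgr1 overlapped. Outside the 3 libraries, Cd68, Mpeg1 and Fcgr1 reached 36.7, 35.5 and 28.3 CPM, against 19.7, 10.9 and 1.84 CPM within them. The 5 naive or follicular B cell markers summed to 35 to 249 CPM in the 3 and 4.94 to 57.2 CPM in the 9. General B cell markers were present throughout, at 2030 to 2920 CPM in the 3 and 2260 to 3550 CPM in the 9. The 4 light zone markers summed to 278 to 549 CPM in dark zone libraries and to 835 to 1470 CPM in light zone libraries. The 4 dark zone markers summed to 969 to 1890 CPM in dark zone libraries and to 576 to 1400 CPM in light zone libraries. The 8 listed of 10 T cell markers summed to 86.9 to 304 CPM. Log2 differences below are therefore also given without the 3 libraries where that turned their direction or moved them by much. That fit holds 1 dark zone and 2 light zone treated libraries, which are assumed to vary like the other groups. The part of these markers in any result was not tested.

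**Figure D1:**
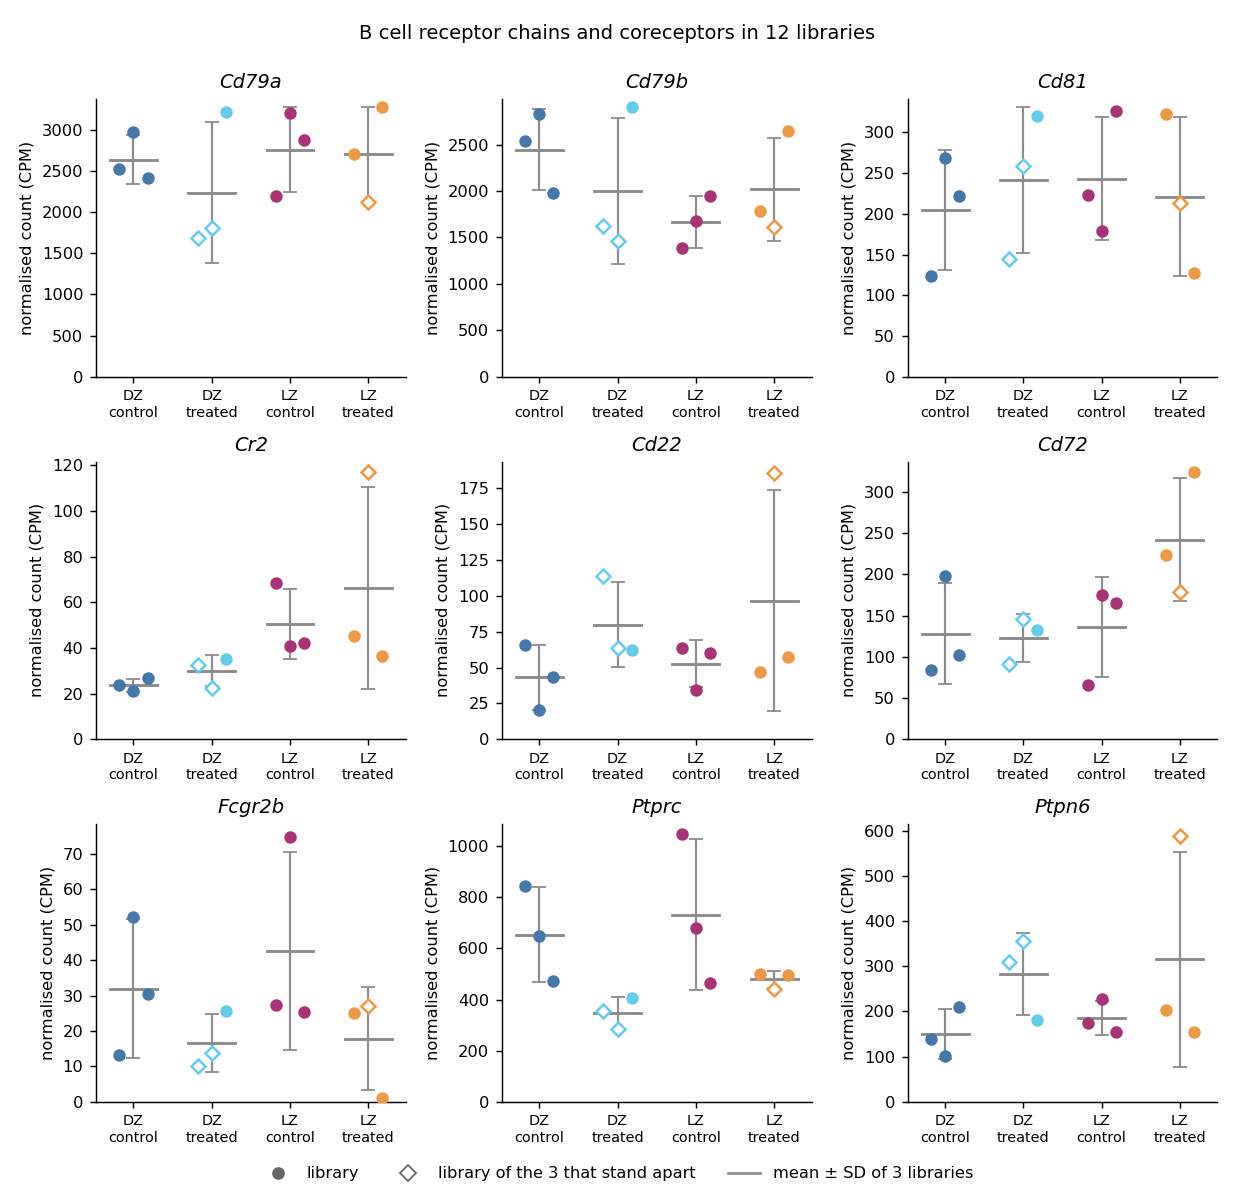
Normalised counts (CPM, linear axes from 0) of the 9 genes in each of 12 libraries, by zone (DZ, dark zone; LZ, light zone) and treatment, with the mean and SD of 3 libraries. Open diamonds are the 3 treated libraries that stood apart. In these TMM-scaled values Ptprc is lower in every dark zone treated library than in every dark zone control library. Cr2 is higher in every light zone library than in every dark zone library. Neither separation was kept with library totals alone.

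None of the 9 genes passed the test in any comparison after adjustment over all genes, and the values below are given as measured. EdgeR's quasi-likelihood test with Benjamini-Hochberg adjustment over 12081 genes passed 0 genes in each of 5 comparisons. These are treatment in the dark zone, treatment in the light zone, the difference between these effects, and light against dark zone, once for control and once for treated libraries. At an unadjusted p under 0.05 there were 1074, 889, 275, 595 and 249 genes, or 8.89%, 7.36%, 2.28%, 4.93% and 2.06%. DESeq2 passed 73, 223, 16, 113 and 1 genes, and limma-voom with quality weights passed 3178, 0, 0, 1 and 0. No member was among those of DESeq2. The 4 members among the 3178 of limma-voom, out of 12081 tested genes, are named with their values below. Log2 differences follow with their standard error (SE) from the edgeR fit.

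Per length, the 9 genes covered a wide range. The signalling chains were the most abundant by this measure, with 1772 ± 377 CPM per kb for Cd79a and 1421 ± 383 CPM per kb for Cd79b (SD, n = 12 libraries, counts over the longest coding transcript). Cd81 followed at 148.5 ± 48.4, Ptprc at 109 ± 42.9, Ptpn6 at 101 ± 57.6 and Cd72 at 60.9 ± 27.8 CPM per kb. The neighbours Cd81, Ptprc and Ptpn6 lay within one SD of each other. Cd22 stood at 17.2 ± 10.9, Fcgr2b at 7.67 ± 5.55 and Cr2 at 6.85 ± 4.30 CPM per kb, and the last 2 also lay within one SD. The immunoglobulin chains themselves were not analysed here, since none of the 12 symbols looked up was listed.

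The signalling chains did not pass edgeR's test with treatment, although limma-voom with quality weights passed both in the dark zone, and the ratio between them was higher in light zone than in dark zone libraries. Cd79a (chr7:24897381-24902197, plus strand) stood at 2521, 2972 and 2408 CPM in dark zone control replicates 1 to 3 and at 1689, 1803 and 3217 CPM in dark zone treated ones. Dark zone treated replicates 1 and 2 were below every control library and replicate 3 above them, so the groups overlapped. In the light zone Cd79a stood at 2192, 3205 and 2871 CPM in control and at 2701, 2125 and 3278 CPM in treated libraries. These 2 groups covered nearly the same range. The treated-minus-control log2 difference was -0.24 (SE 0.32, adjusted p = 0.78) in the dark zone and -0.03 (SE 0.32, adjusted p = 0.986) in the light zone. Without the 3 libraries that stood apart these values were 0.30 (SE 0.24) and 0.13 (SE 0.19), so the direction turned in both zones. Scaling by library total alone also turned it, to 0.15 in the dark zone and 0.20 in the light zone. Over all 12 libraries, TMM-scaled Cd79a was lower in the 3 libraries, at 1690 to 2130 CPM, than in any of the other 9, at 2190 to 3280 CPM. A separation of this kind was seen for 16.7% of tested genes. With library totals alone the 3 and the 9 overlapped. Light zone treated replicate 2, one of the 3, held 82202 Cd79a counts of 26837714. Light zone control replicate 1 held 33521 of 17307186.

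Cd79b (chr11:106311341-106314762, minus strand) stood at 2539, 2825 and 1975 CPM in dark zone control and at 1624, 1466 and 2906 CPM in dark zone treated libraries. As for Cd79a, replicates 1 and 2 of the treated group were low and replicate 3 was the highest of all. In the light zone it stood at 1386, 1672 and 1949 CPM in control and at 1789, 1612 and 2650 CPM in treated libraries. The light zone control libraries all lay below the dark zone control libraries, by a narrow margin between 1949 and 1975 CPM. The light-minus-dark log2 difference in control was -0.55 (SE 0.34, adjusted p = 1, edgeR), and 5.6% of tested genes were likewise lower without overlap. In treated libraries it was 0.01 (SE 0.34), and -0.38 (SE 0.32) without the 3 libraries that stood apart. With treatment the log2 difference was -0.29 (SE 0.34, adjusted p = 0.737) in the dark zone and 0.27 (SE 0.34, adjusted p = 0.865) in the light zone. Without the 3 libraries these were 0.26 (SE 0.30) and 0.42 (SE 0.24), and the dark zone value was 0.10 when scaled by library total alone. Limma-voom with quality weights passed both chains in the dark zone, at -0.52 for Cd79a (adjusted p = 0.0348) and -0.55 for Cd79b (adjusted p = 0.0453). That test passed 3178 of 12081 genes in this comparison.

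The ratio of Cd79a to Cd79b counts, which does not depend on library scaling, was 0.993, 1.05 and 1.22 in dark zone control and 1.04, 1.23 and 1.11 in dark zone treated libraries. It was 1.58, 1.92 and 1.47 in light zone control and 1.51, 1.32 and 1.24 in light zone treated libraries. Every light zone library was above every dark zone library, with 1.23 as the highest dark zone value and 1.24 as the lowest light zone value. The means were 1.11 ± 0.0986 in the dark zone and 1.51 ± 0.238 in the light zone (SD, n = 6 each). The ratio was chosen after its values were seen and is given without a test. Of 12080 genes set against Cd79a in the same way, 24 (0.199%) were lower in all 6 light zone than in all 6 dark zone libraries. Without the 3 libraries that stood apart the zones also did not overlap, which held for 1.29% of genes. Cd79b has 2 curated RefSeq transcripts and values midway between whole numbers in 5 libraries, while Cd79a has 1 and none. Values of genes with several transcripts may not be counts per gene, and the part of this in the ratio was not tested.

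**Figure D2:**
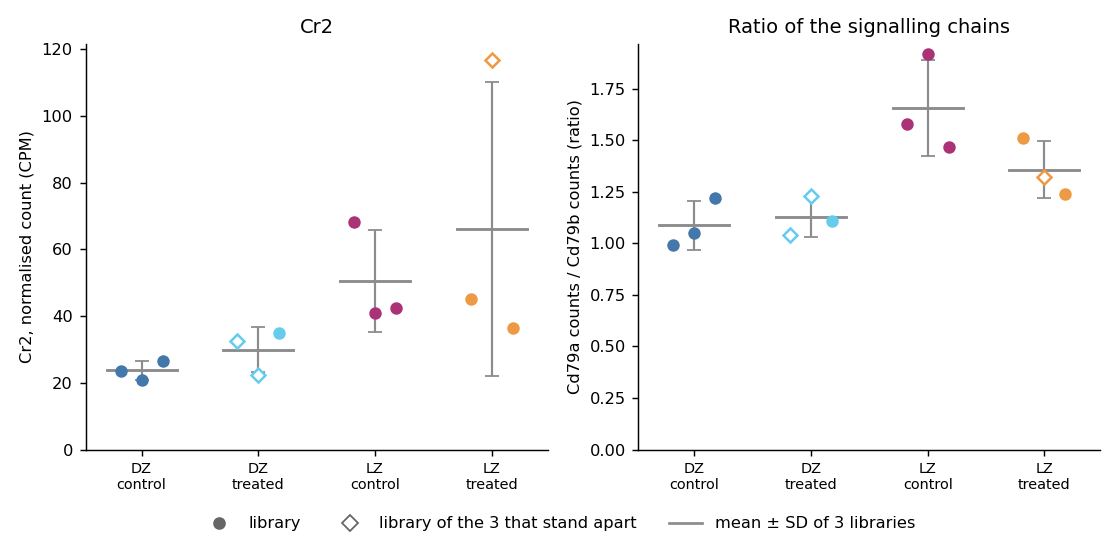
Cr2 normalised counts (CPM, left) and the ratio of Cd79a to Cd79b counts (right) in each library by zone and treatment, with mean and SD of 3 libraries, both axes from 0. All 6 light zone libraries lie above all 6 dark zone libraries in both panels, by 36.33 against 35 CPM for the closest Cr2 values and by 1.24 against 1.23 for the closest ratios. The Cr2 separation was not kept with library totals alone.

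Of the coreceptor genes, Cr2 was the one that separated the zones in TMM-scaled CPM, though not with library totals alone. Cr2 (chr1:195136811-195176716, minus strand) stood at 23.6, 20.9 and 26.7 CPM in dark zone control and at 32.6, 22.3 and 35 CPM in dark zone treated libraries. It stood at 68.2, 41.0 and 42.3 CPM in light zone control and at 45.1, 116.8 and 36.3 CPM in light zone treated libraries. In TMM-scaled CPM every light zone library exceeded every dark zone library. Light zone treated replicate 2, one of the 3 that stood apart, was the highest by a wide margin. Such a separation of 6 against 6 libraries, with the light zone higher, was found for 12 of 12081 genes (0.0993%). With the 3 libraries left out, 5 light zone libraries still exceeded all 4 dark zone libraries, as 1.26% of genes did. With library totals alone both separations were lost. Light zone treated replicate 3 held 704 Cr2 counts of 21995203. Dark zone treated replicates 1 and 3 held 1013 of 21907505 and 874 of 26508527. The log2 differences were then 1.04 (SE 0.61) in control and 1.13 (SE 0.61) in treated libraries. The ratio of Cr2 to Cd79a counts was 0.00705 to 0.0193 in dark zone and 0.0111 to 0.0549 in light zone libraries, which overlapped. In control libraries the light-minus-dark log2 difference was 1.09 (SE 0.51, adjusted p = 1, edgeR), and 4.47% of genes were likewise higher without overlap. In treated libraries it was 1.14 (SE 0.51, adjusted p = 1, edgeR), where 2.24% of genes were higher without overlap.

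The size of the zone difference in treated libraries rested on replicate 2 of the light zone. Without that library the Cr2 difference was 0.44 (SE 0.45, adjusted p = 0.622, edgeR), and without all 3 libraries it was 0.23 (SE 0.59). In control libraries, fitted without the 3, it was 1.11 (SE 0.40, adjusted p = 0.951, edgeR). Treatment itself gave a Cr2 log2 difference of 0.34 (SE 0.50, adjusted p = 0.797) in the dark zone and 0.39 (SE 0.50, adjusted p = 0.871) in the light zone. In the 9 remaining libraries these were 0.58 (SE 0.54) and -0.30 (SE 0.44). Cr2 is also expressed by naive and marginal zone B cells and by follicular dendritic cells. Naive or follicular B cell markers summed to 249 CPM in light zone treated replicate 2, where Fcer2a, which encodes CD23, was 95.1 CPM, Klf2 43.5 and Ccr7 43.1 CPM. In the other light zone libraries that sum was 4.94 to 57.2 CPM and in the dark zone 14.6 to 58.5 CPM, so the zones overlapped in it. The 4 marginal zone B cell markers summed to 810 to 834 CPM in the 3 libraries and 1630 to 2270 CPM in the other 9. Most of that sum was Mzb1, at 542 to 722 CPM in the 3 and 1540 to 2260 CPM in the 9, while Dtx1 was higher in the 3, at 81.8 to 154 CPM against 0.506 to 59.2 CPM. S1pr1 stood at 6.6 to 96.3 CPM in the 3 and 0 to 30 CPM in the 9. Of 7 follicular dendritic cell or stroma markers, Cxcl13, Clu, Coch and Col3a1 were not listed, and the other 3 summed to 9.25 to 20.7 CPM over all libraries.

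Cd81 (chr7:143052739-143067934, plus strand) encodes a tetraspanin, a membrane protein of the coreceptor complex. It stood at 123.7, 269 and 221 CPM in dark zone control and at 144.6, 259 and 320.5 CPM in dark zone treated libraries. It stood at 224, 179.5 and 327 CPM in light zone control and at 323, 213 and 128 CPM in light zone treated libraries. Each group held both low and high libraries, and all 4 groups overlapped. The treatment log2 difference was 0.24 (SE 0.46, 95% interval -0.77 to 1.24) in the dark zone and -0.14 (SE 0.46, 95% interval -1.14 to 0.87) in the light zone, the latter 0.13 when scaled by library total alone. The zone differences were 0.25 (SE 0.46) in control and -0.13 (SE 0.46) in treated libraries. Without the 3 libraries the treatment differences were 0.66 (SE 0.61) and -0.09 (SE 0.50), and the zone difference in treated libraries was -0.49 (SE 0.66). The ratio of Cr2 to Cd81 counts was 0.0778 to 0.226 in dark zone and 0.129 to 0.548 in light zone libraries, and these ranges overlapped.

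The 3 inhibitory receptors had treatment differences of both signs, and none passed. Cd22 (chr7:30865402-30880342, minus strand) stood at 65.9, 20.5 and 43.3 CPM in dark zone control and at 114.2, 63.7 and 62.2 CPM in dark zone treated libraries. It stood at 64.0, 34.3 and 60.1 CPM in light zone control and at 47.0, 185.5 and 57.3 CPM in light zone treated libraries. The highest 2 values, in light zone treated replicate 2 and dark zone treated replicate 1, both belonged to libraries that stood apart, and control and treated groups overlapped in each zone. The treatment log2 difference was 0.89 (SE 0.61, adjusted p = 0.574) in the dark zone and 0.87 (SE 0.61, adjusted p = 0.757) in the light zone. In the other 9 libraries it was 0.54 (SE 0.69) in the dark zone and -0.01 (SE 0.56) in the light zone. CD22 is also abundant on naive B cells, whose markers were highest in the same light zone library.

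Cd72 (chr4:43446462-43454628, minus strand) encodes an inhibitory C-type lectin receptor that binds semaphorin 4D. It stood at 83.6, 198 and 102.6 CPM in dark zone control and at 90.8, 146 and 133 CPM in dark zone treated libraries, which lay within the control range. It stood at 66.4, 175.6 and 166 CPM in light zone control and at 224, 179 and 324 CPM in light zone treated libraries. All 3 light zone treated libraries were above all 3 light zone controls, although the nearest were only 175.6 and 179 CPM. The log2 difference there was 0.83 (SE 0.46, adjusted p = 0.696, edgeR), and 5.82% of genes were higher without overlap. With the 3 libraries left out it was 1.02 (SE 0.53), and without light zone control replicate 1 it was 0.50 (SE 0.46). In the dark zone it was -0.06 (SE 0.46), 0.07 (SE 0.67) without the 3 libraries and 0.41 when scaled by library total alone. The difference between the treatment effects was 0.89 (SE 0.65, adjusted p = 1, edgeR), so the zones were not shown to differ. In treated libraries Cd72 was also higher in every light zone than in every dark zone library, with a log2 difference of 0.98 (SE 0.47, adjusted p = 1, edgeR), as 2.24% of genes were without overlap. Exons of Cd72 share 1423 bases with Tesk1 on the opposite strand, and the library kit does not mark strand. Tesk1 stood at 23.2, 24.4 and 35.2 CPM in the 3 libraries that stood apart and at 0.344 to 4.93 CPM elsewhere.

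Fcgr2b (chr1:170958617-170976547, minus strand) was the most variable member. It stood at 13.1, 52.2 and 30.4 CPM in dark zone control and at 10.05, 13.8 and 25.7 CPM in dark zone treated libraries. It stood at 27.4, 74.7 and 25.3 CPM in light zone control and at 25.2, 27.1 and 1.03 CPM in light zone treated libraries. The treated means were the lower in each zone, but the groups overlapped, and light zone treated replicate 3 held only 20 counts. The highest value, 74.7 CPM, was 72.4 times the lowest, where the same ratio ran from 1.94 to 9.05 for the other 8 members. The treatment log2 difference was -0.95 (SE 0.99, 95% interval -3.14 to 1.24) in the dark zone and -1.26 (SE 0.995, 95% interval -3.46 to 0.95) in the light zone. With limma-voom and quality weights the light zone value was -2.45 (SE 1.12, adjusted p = 0.862). With the 3 libraries left out, the edgeR values were -0.30 (SE 1.58) and -1.67 (SE 1.31). Single libraries also moved them: the dark zone value was -0.40 (SE 1.10) without control replicate 2. The light zone value was -0.57 (SE 1.09) without control replicate 2 and -0.70 (SE 0.76) without treated replicate 3. Fcgr3, whose extracellular part is nearly identical and which could share reads with Fcgr2b, stood at 0 to 6.17 CPM.

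**Figure D3:**
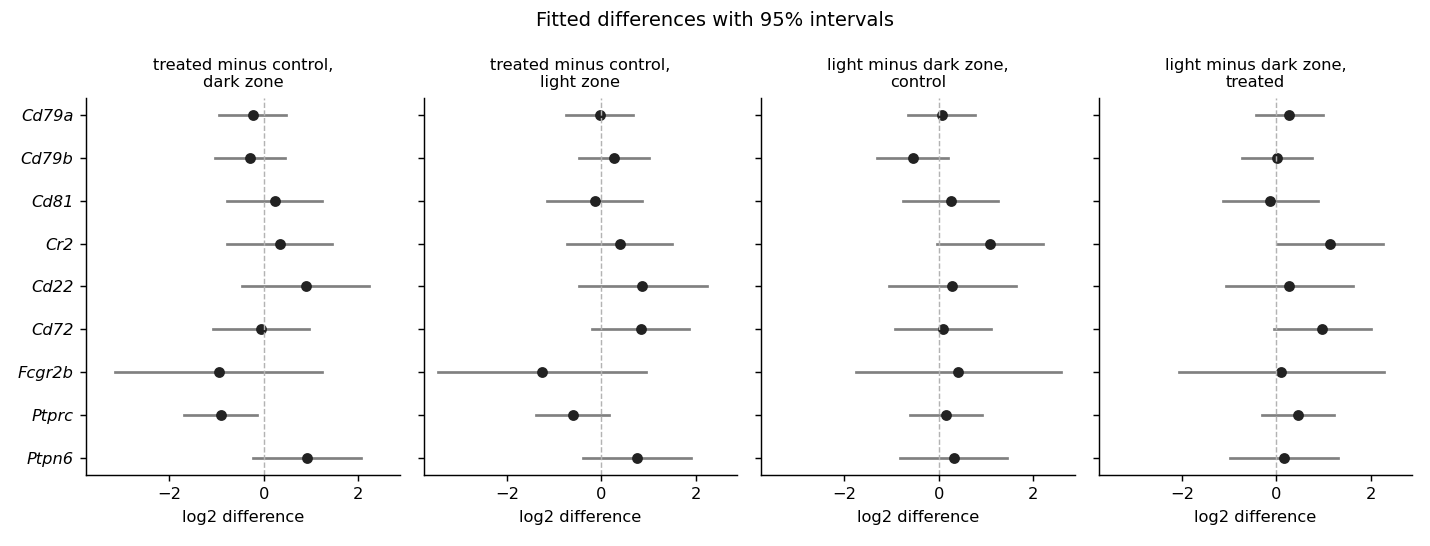
Log2 differences of the 9 genes (points) with 95% intervals (lines) from the edgeR fit of 12 libraries, for treated minus control in each zone and light minus dark zone in each treatment. The intervals that exclude 0 are those of Ptprc with treatment in the dark zone, -1.68 to -0.14, and of Cr2 between zones in treated libraries, 0.02 to 2.26; neither passed adjustment over all genes.

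Of the phosphatase genes, Ptprc had lower TMM-scaled values in all dark zone treated libraries, and Ptpn6 had its highest values in the 3 libraries that stood apart. Ptprc (chr1:138062861-138175708, minus strand) stood at 843, 648 and 472 CPM in dark zone control and at 354.5, 284 and 407 CPM in dark zone treated libraries. In TMM-scaled CPM every treated library was below every control library, and treated replicate 3, which did not stand apart, was the one nearest to the controls. With library totals alone the groups overlapped. Treated replicate 1 held 11010 Ptprc counts of 21907505, and control replicate 3 held 8892 of 19087430. The values that follow are TMM-scaled unless another method is named. The log2 difference was -0.91 (SE 0.35, 95% interval -1.68 to -0.14), which was 0.532-fold, with an adjusted p = 0.528 by edgeR. Lower values without overlap were found for 11.2% of tested genes in this comparison. Limma-voom with quality weights passed Ptprc here, among 3178 of 12081 genes, at -0.91 (SE 0.26, adjusted p = 0.0268), while DESeq2 gave an adjusted p of 0.222. With the 3 libraries left out the difference was -0.67 (SE 0.49, adjusted p = 1, edgeR), with replicate 3 as the only treated dark zone library.

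In the light zone Ptprc stood at 1048, 681 and 465 CPM in control and at 501, 440.5 and 497 CPM in treated libraries. The treated libraries lay close together, near the lowest of 3 widely spread controls, and the groups overlapped. The log2 difference was -0.61 (SE 0.35, adjusted p = 0.704, edgeR), and -0.26 without light zone control replicate 1, the lowest of the leave-one-out values in size. The difference between the treatment effects was 0.30 (SE 0.49, adjusted p = 1, edgeR), and 0.13 (SE 0.61) without the 3 libraries. In treated libraries TMM-scaled Ptprc was higher in every light zone than in every dark zone library, as 2.24% of genes were. The log2 difference there was 0.46 (SE 0.35, adjusted p = 1, edgeR), and 0.31 (SE 0.51) without the 3. Scaling by library total alone gave -0.47 (SE 0.32) for treatment in the dark zone, and both separations of Ptprc were lost. Dark zone treated replicate 1 then lay above dark zone control replicate 3 and above light zone treated replicates 1 and 3. Under that scaling the median over all genes was itself 0.51 in the dark zone and 0.39 in the light zone, against 0.06 and 0.10 with TMM.

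Ptpn6 (chr6:124720707-124738714, minus strand) stood at 138, 100.5 and 210.1 CPM in dark zone control and at 309, 356 and 181 CPM in dark zone treated libraries. It stood at 175, 227 and 154 CPM in light zone control and at 203, 589 and 153.5 CPM in light zone treated libraries. The high values, 309, 356 and 589 CPM, were those of the 3 libraries that stood apart, and the other treated libraries, at 153.5 to 203 CPM, lay within the range of the 6 controls. Over all 12 libraries the 3 were above all others, which did not exceed 227 CPM, as was the case for 13.7% of tested genes. The treatment log2 difference was 0.92 (SE 0.52, adjusted p = 0.533, edgeR) in the dark zone and 0.77 (SE 0.52, adjusted p = 0.744) in the light zone. In the other 9 libraries these values were 0.30 (SE 0.44) and -0.04 (SE 0.35). Limma-voom with quality weights passed the dark zone difference, at 1.04 (SE 0.30, adjusted p = 0.027), as it did for 3178 of 12081 genes in all. Ptpn6 is also expressed by myeloid cells, whose 9 listed markers summed to 79.0, 78.5 and 184 CPM in the 3 libraries and to 66 CPM or less in the others. Of these markers, Lyz2, C1qa, C1qb, C1qc and Csf1r were each higher in the 3, while Adgre1, Cd68, Mpeg1 and Fcgr1 overlapped with the others. The ratio of Ptpn6 to Ptprc counts was 0.872, 1.26 and 1.34 in the 3 libraries and 0.155 to 0.446 in the other 9. Ptpn6 alone already separated these libraries, and the share of all genes that do so in a ratio to Ptprc was not computed.

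**Figure D4:**
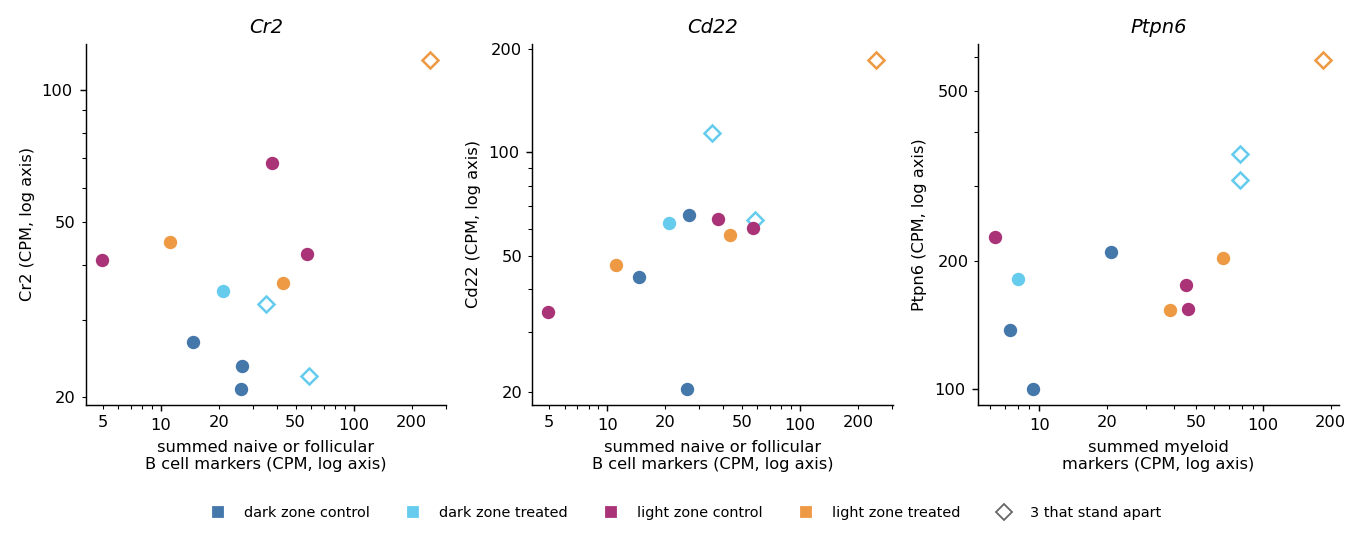
Cr2 and Cd22 (CPM) against the summed naive or follicular B cell markers and Ptpn6 against the summed myeloid markers, 1 point per library, all axes logarithmic. Light zone treated replicate 2 is the upper right diamond in each panel, at 116.8, 185.5 and 589 CPM, and the 3 diamonds are the highest points for Ptpn6.

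Counted together, 4 members were higher and 5 lower with treatment in the dark zone, with a median log2 difference of -0.06 against 0.06 for all genes, of which 52.2% were higher. In the light zone 5 were higher and 4 lower, with a median of 0.27 against 0.10 for all genes, of which 54.1% were higher. Without the 3 libraries the counts were 7 higher and 2 lower in the dark zone (median 0.30, all genes -0.11) and 3 higher and 6 lower in the light zone (median -0.04, all genes -0.04). Scaled by library total alone, 7 of 9 were higher in each zone, where the medians over all genes were 0.51 and 0.39. Between zones, 8 of 9 members had the higher value in the light zone of control libraries, Cd79b being the exception, with a median of 0.25 against 0.00149 for all genes, of which 50.1% were higher. In treated libraries 8 of 9 were higher, with a median of 0.27 against 0.05 for all genes, of which 52.6% were higher, but 3 of 9 and a median of -0.09 without the 3 libraries. Comparisons that share a group of libraries are not independent of each other. For the difference between the treatment effects, 5 members were above 0, as were 55.5% of all genes, and the adjusted p was 1 for each in edgeR.

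Over the 12 libraries the 9 genes did not form a single pattern. Pearson's r of log2 CPM was 0.68 between Cd79a and Cd79b and 0.75 between Cd22 and Ptpn6. Between Cd79a and Ptpn6 it was -0.64, and between Cd79b and Ptpn6 it was -0.66. Over the 9 libraries without the 3, Cd79a and Cd79b had 0.55 and Cd22 and Ptpn6 0.31. Cd79a and Ptpn6 then had -0.09 and Cd79b and Ptpn6 -0.59, while Cd79a and Cd72 had 0.78. Libraries of a group share their treatment and zone, so these values describe 12 libraries and carry no p. The genes most like each member over the 12 libraries included Pdcd2l for Cd79a (0.953, and 0.926 over 9) and Cd2 for Cd79b (0.91 and 0.885). They further included Ilkap for Cd81 (0.919 and 0.97), Asb2 for Cr2 (0.876 and 0.758), Slc40a1 for Cd22 (0.91 and 0.826) and Bid for Cd72 (0.851 and 0.834). For Fcgr2b it was Ms4a6b (0.932 and 0.935), for Ptprc Dhx15 (0.947 and 0.97), and for Ptpn6 Klf9 (0.942 and 0.813). Each was the highest of 12080 correlations of its member.

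None of the kinases and adaptors next to the receptor passed with treatment. Of 17 tested, 14 were higher and 3 lower in the dark zone (median 0.77), and 14 higher and 3 lower in the light zone (median 1.10), against medians of 0.06 and 0.10 over all genes, of which 52.2% and 54.1% were higher. At an unadjusted p under 0.05 there were 2 in the dark zone and 6 in the light zone, all higher, where 4.87% and 5.83% of all genes were. In the other 9 libraries, 11 of 17 were higher in the dark zone (median 0.20, all genes -0.11). In the light zone 10 of 17 were (median 0.35, all genes -0.04). The 3 most abundant were Blnk, the adaptor that links SYK to phospholipase C, Grb2, an adaptor to RAS, and Lyn, the kinase that starts the signal. Lyn stood at 172, 98.8 and 112 CPM in dark zone control and 269, 238 and 144 CPM in dark zone treated libraries, which overlapped. Its log2 differences with treatment were 0.77 (SE 0.52) and 0.40 (SE 0.52) in the dark and light zone, and 0.19 (SE 0.52) and -0.36 (SE 0.42) without the 3 libraries. Blnk had -0.20 (SE 0.33) and 0.17 (SE 0.33), then 0.02 (SE 0.29) and 0.44 (SE 0.23). Grb2 had 0.64 (SE 0.43) and 0.72 (SE 0.43), then 0.56 (SE 0.51) and 0.26 (SE 0.41).

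Fyn, a kinase related to LYN and named here after its values were seen, had the smallest unadjusted p-value of these kinases and adaptors in the light zone. It stood at 8.57, 10.8 and 5.51 CPM in light zone control and at 41.9, 79.1 and 48.9 CPM in treated libraries, without overlap, as 5.82% of genes were. Every treated library was several times the highest control, including the 2 that did not stand apart. The log2 difference was 2.77 (SE 0.54, adjusted p = 0.577, edgeR), and 2.46 (SE 0.56, adjusted p = 0.571, edgeR) without the 3 libraries. In the dark zone it was 1.15 (SE 0.51), or 0.51 (SE 0.68) without the 3, and the difference between the effects was 1.62 (SE 0.72, adjusted p = 1, edgeR). Fyn is abundant in T cells, whose 8 listed markers summed to 117 to 225 CPM in light zone control and 217 to 304 CPM in light zone treated libraries. Most of that sum was Lck, at 92.3, 197 and 141 CPM in control and 206, 249 and 152 CPM in treated libraries. Cd3e, another of these markers, stood at 0.981, 0.746 and 1.99 CPM in control and at 0.936, 10.6 and 1.19 CPM in treated libraries. In the 9 libraries of both zones that did not stand apart, Cd3d was 2.88 to 23.2 CPM, Cd3g 0 to 28.5 CPM and Cd28 0.548 to 11.4 CPM. Cd4, Cd8a and Cd8b1 were at most 0.152, 0.16 and 0.521 CPM there. The part of T cell RNA in the Fyn values was not tested.

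None of the other B cell surface receptors passed with treatment. Of 19 tested, 7 were higher and 12 lower in the dark zone (median -0.15, all genes 0.06). In the light zone 10 were higher and 9 lower (median 0.03, all genes 0.10). Of all genes, 52.2% and 54.1% were higher in the dark and light zone. Over the other 9 libraries, 10 receptors (median 0.16, all genes -0.11) and 13 (median 0.30, all genes -0.04) were higher. Ms4a1, which encodes CD20, had log2 differences of -0.38 (SE 0.34) and 0.11 (SE 0.34), and of 0.16 (SE 0.27) and 0.30 (SE 0.22) without the 3. The tetraspanin gene Cd53 had -1.24 (SE 0.67) and -0.35 (SE 0.66), and Ifitm2 had -1.25 (SE 0.74) and -0.37 (SE 0.73). In the fit of 9 libraries Cd53 had -0.17 (SE 0.24) and 0.10 (SE 0.19), and Ifitm2 -0.09 (SE 0.33) and 0.08 (SE 0.26). Both were low in the 3 libraries that stood apart, where Cd53 was 246, 357 and 435 CPM against 1280 to 2120 CPM elsewhere. Cd37, a tetraspanin of B cells, stood at 152, 152 and 206 CPM in dark zone control and at 368, 453 and 327 CPM in dark zone treated libraries, without overlap, as 12.5% of genes were. Its log2 difference was 1.17 (SE 0.38, adjusted p = 0.528, edgeR) and 0.96 (SE 0.40) without the 3 libraries. Cd37 was named after its values were seen.

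Of 20 tested inhibitory receptors and phosphatases outside the 9 genes, 15 were higher and 5 lower with treatment in the dark zone (median 0.78, all genes 0.06). In the light zone 13 were higher and 7 lower (median 0.71, all genes 0.10). With the 3 libraries left out 10 of 20 (median -0.16, all genes -0.11) and 5 of 20 (median -0.46, all genes -0.04) were higher. Both medians of the list turned in sign, as did those over all genes. Ptpn18, which encodes a phosphatase of the PEST family, had -1.01 (SE 0.45) in the dark zone and -0.29 (SE 0.45) in the light zone, and -0.34 (SE 0.33) and 0.03 (SE 0.26) without the 3. Cd47, the ligand of SIRPα, had -0.61 (SE 0.40) and -0.22 (SE 0.40). Ptpn1 had 2.83 (SE 1.09, adjusted p = 0.528, edgeR) and 0.90 (SE 1.02), with 321, 351 and 387 CPM in the 3 libraries and 6.07 to 143 CPM in the other 9, in which it had 1.38 (SE 1.31) and -0.32 (SE 1.12). Of 5 CD45 partners and other receptor phosphatases, 2 were higher and 3 lower in the dark zone (median -0.13, all genes 0.06). In the light zone 3 were higher and 2 lower (median 1.05, all genes 0.10). When the 3 libraries were left out, 1 of 5 (median -0.74, all genes -0.11) and 3 of 5 (median 0.04, all genes -0.04) were higher. Ptprcap, whose product binds CD45, stood at 1250, 1230 and 1100 CPM in dark zone control and at 737, 670 and 1110 CPM in dark zone treated libraries. Those groups overlapped, with replicate 3 within the controls. Its log2 difference was -0.51 (SE 0.30, adjusted p = 0.54, edgeR), and in the light zone -0.09 (SE 0.30). In the fit of 9 libraries these were -0.10 (SE 0.27) and 0.04 (SE 0.22). Ptpra had 0.91 (SE 0.86) and 1.81 (SE 0.88), and Ptprs, at a mean of 4.61 CPM, had -1.15 (SE 0.85) and -0.17 (SE 0.83), the latter -0.47 (SE 1.03) without the 3.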

How the data were processed

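RNA from 1000 sorted cells per library was amplified with a SMART-Seq v4 Ultra kit and sequenced as Nextera XT libraries, per the labels' protocols. Per the submitters' processing notes the authors used BWA and mm10, and no source used here names their counting program or annotation. What the authors deposited are unscaled expected counts for 12212 symbols in each of 12 libraries, with totals of 16032746 to 26837714. Some values fall midway between integers and were rounded up. These occurred in 0.209% of symbols with 1 curated RefSeq transcript and 57.7% of those with 2, and in 5 of the 9 members (Cd79b, Cd22, Cd72, Fcgr2b and Ptpn6), so values of such genes may not be counts per gene. Blank cells were read as 0.

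All 12 libraries entered 1 fit of 4 groups in edgeR 4.0.16 (R 4.3.3) with TMM, filterByExpr (minimum count 10, minimum total 15, 12081 genes kept) and the robust quasi-likelihood test, two-sided, with Benjamini-Hochberg adjustment over all tested genes and a threshold of 0.05. CPM used TMM-scaled library sizes, and log2 CPM a prior count of 2. Intervals cover 95%. Other settings were DESeq2 1.42.0, limma-voom with quality weights (limma 3.58.1), DESeq2-type size factors (RLE), library totals alone, no filter, rounding down, only the groups compared, 9 libraries, blocks by replicate number, and each library left out. The script was tested on simulated data. Groups come from the sample titles. Members were named in full, with the 3 most abundant genes of each related list and the most alike genes of each member. The members and lists were chosen with earlier results of these data known. Gene positions and lengths are from GENCODE M21, and 8 of 9 members were in the promoter table (not Cd79b). Results for some related genes are not reported here.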

Additional observations from a re-analysis of the deposited data

How the results depend on the processing

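With 3 libraries per group and 1000 cells each, log2 differences of members had SEs from 0.32 to 1.39, which limits what could be detected. The numbers of genes passing in edgeR were 0 for all 5 comparisons under every edgeR setting and with any 1 library left out (range 0 to 0). DESeq2 passed 73 for treatment in the dark zone, 223 in the light zone, 16 for the difference between these effects, 113 for zones in control and 1 in treated libraries, against 0 in edgeR. Limma-voom with quality weights passed 3178 for treatment in the dark zone and 1 for zones in control. Of 423 values of members under other settings, 386 kept their direction and side of the threshold, 33 changed sign and 4 passed (Cd79a, Cd79b, Ptprc and Ptpn6 with treatment in the dark zone, limma-voom). The cause was not tested.

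Without the 3 libraries that stood apart, treatment in the dark zone gave 0.303 for Cd79a, 0.262 for Cd79b and 0.067 for Cd72. Treatment in the light zone gave 0.13 for Cd79a, -0.298 for Cr2, -0.0053 for Cd22 and -0.0426 for Ptpn6. The difference between the effects was -0.173 for Cd79a and -0.874 for Cr2. Zones in treated libraries gave -0.0919 for Cd79a, -0.376 for Cd79b, -0.24 for Cd22, -0.945 for Fcgr2b and -0.00617 for Ptpn6. Scaled by library total alone, treatment in the dark zone gave 0.148 for Cd79a, 0.0972 for Cd79b and 0.412 for Cd72. In the light zone it gave 0.201 for Cd79a and 0.132 for Cd81, the difference between the effects was 0.00592 for Cd22, and zones in treated libraries gave -0.171 for Cd79b. Limma-voom gave 0.0843 for Cd72 with treatment in the dark zone, 0.037 for Cd79a in the light zone and -0.101 for the difference between the effects of Cr2. It gave -0.377 for Cd22, 0.032 for Cd81, -0.887 for Fcgr2b and -0.641 for Ptpn6 between zones in treated libraries.

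Replicate numbers were not shown to pair the libraries: 3 of 6 pairs with the same number correlated above 0.1 in their deviations from the group means, and 2 of 6 libraries correlated best with their own number. With a replicate block by number, 0 genes passed in each comparison, the difference between the effects of Cd22 was 0.0308 and Fcgr2b between zones in treated libraries was -0.0932. With a replicate block by treatment and number, 0 genes passed, the difference for Cr2 was -0.112, and zones in treated libraries gave -0.261 for Fcgr2b and -0.0422 for Ptpn6.

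With 1 library left out, 269 of 324 values of members kept their sign, and the ranges that include a change of sign follow. They were -0.286 to 0.404 for Cd72 and -0.0222 to 0.502 for Cd81 for treatment in the dark zone. They were -0.0134 to 1.2 for Cd22, -0.189 to 0.12 for Cd79a, -0.515 to 0.142 for Cd81, -0.305 to 0.674 for Cr2 and -0.0506 to 1.09 for Ptpn6 for treatment in the light zone. They were -0.906 to 0.319 for Cd22, -0.643 to 0.336 for Cr2, -0.86 to 0.38 for Fcgr2b and -0.972 to 0.167 for Ptpn6 for the difference between the effects. They were -0.0485 to 0.726 for Cd22, -0.145 to 0.546 for Cd72, -0.0569 to 0.206 for Cd79a, -0.0225 to 0.496 for Cd81, -0.274 to 0.966 for Fcgr2b and -0.192 to 0.402 for Ptprc between zones in control libraries. They were -0.624 to 0.6 for Cd22, -0.237 to 0.384 for Cd79b, -0.504 to 0.146 for Cd81, -0.322 to 0.659 for Fcgr2b and -0.668 to 0.47 for Ptpn6 between zones in treated libraries.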
